A study of Mus musculus with 12 samples.

Results

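The cGAS-STING DNA sensing pathway was followed through 7 genes of mouse KPC cells treated with cisplatin (Cis). The genes are Cgas (ENSMUSG00000032344), Trex1 (ENSMUSG00000049734), Sting1 (ENSMUSG00000024349), Mavs (ENSMUSG00000037523), Tbk1 (ENSMUSG00000020115), Ikbke (ENSMUSG00000042349) and Irf3 (ENSMUSG00000003184). They were found by their symbols in the transcript names, and all 7 were among the 15803 transcripts with a read in at least 1 library. KPC is a pancreatic ductal adenocarcinoma (PDAC) line from genetically engineered mice that carry a lox-stop-lox mutant Trp53 allele and Pdx1-Cre, a recombinase expressed in the developing pancreas, and every group was made from this line. Cells received 20 μM Cis for 6 or 21 h or PBS in its place. The labels call the PBS cells untreated and do not give how long they were kept, and the same PBS libraries served as control for both times. Each group had 2 libraries of ribosome footprints, the RNA fragments that ribosomes shield from RNase, and 2 of RNA-seq, 12 in all. Nothing in the labels says that the 2 libraries came from separate cultures, so the p-values measure only the spread between libraries.

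cGAS binds double-stranded DNA in the cytosol and makes the cyclic dinucleotide cGAMP. STING, on the endoplasmic reticulum (ER), binds cGAMP, moves to the Golgi and recruits the kinase TBK1, and TBK1 or its relative IKKε (Ikbke) phosphorylates the transcription factor IRF3, which enters the nucleus and switches on interferon and chemokine genes. TREX1 is the exonuclease that removes cytosolic DNA before cGAS meets it. MAVS is the mitochondrial adaptor through which the RNA sensors RIG-I and MDA5 reach the same kinases and IRF3. Agents that damage DNA, cisplatin among them, are known to feed this route with DNA from micronuclei and mitochondria.

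Footprint libraries held 3375480 to 5204127 reads and RNA-seq libraries 1985344 to 2901692, of which 51.8 to 56.6% lay on Lars2, Tmem38b and Mettl26. Levels are RPKM (reads divided by library total and by length), where the length is the coding sequence in footprints and the transcript in RNA, so they can be compared between genes. Of 10 ductal epithelial markers, 7 had a mean of at least 1 RPKM in footprints. Krt8, Krt18, Krt19 and Cdh1 were high in every footprint library, while Epcam, Muc1 and Cldn4 never passed 1.83 RPKM. Ocln was at 0 in all footprint libraries and its RNA did not exceed 0.118 RPKM. The summed level of these markers was 9113 to 9795 RPKM with PBS and 6728 to 6861 at 21 h.

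With PBS, the 7 genes fell into 3 levels of footprints. Tbk1 (18.8 ± 4.09 RPKM, SD, n = 2), Irf3 (16.1 ± 1.94), Trex1 (14.5 ± 5.41) and Mavs (14.2 ± 3.45) lay near the middle of the 10383 transcripts tested, and neighbours among these 4 did not differ beyond the spread of their libraries. Cgas came below them at 7.72 ± 1.45 RPKM, above 29.8% of the transcripts. Ikbke (4.67 ± 0.0301) and Sting1 (2.68 ± 0.0442) were lowest, and Sting1 exceeded only 10.2% of the transcripts. At 21 h the order had changed at one place in particular. Cgas reached 23.5 ± 1.93 RPKM, above 55.8% of transcripts, next to Tbk1 at 24.7 ± 0.499 and Trex1 at 21.3 ± 1.70, while Sting1 at 5.53 ± 0.0371 RPKM stood above Ikbke at 4.29 ± 0.713.

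**Figure D1:**
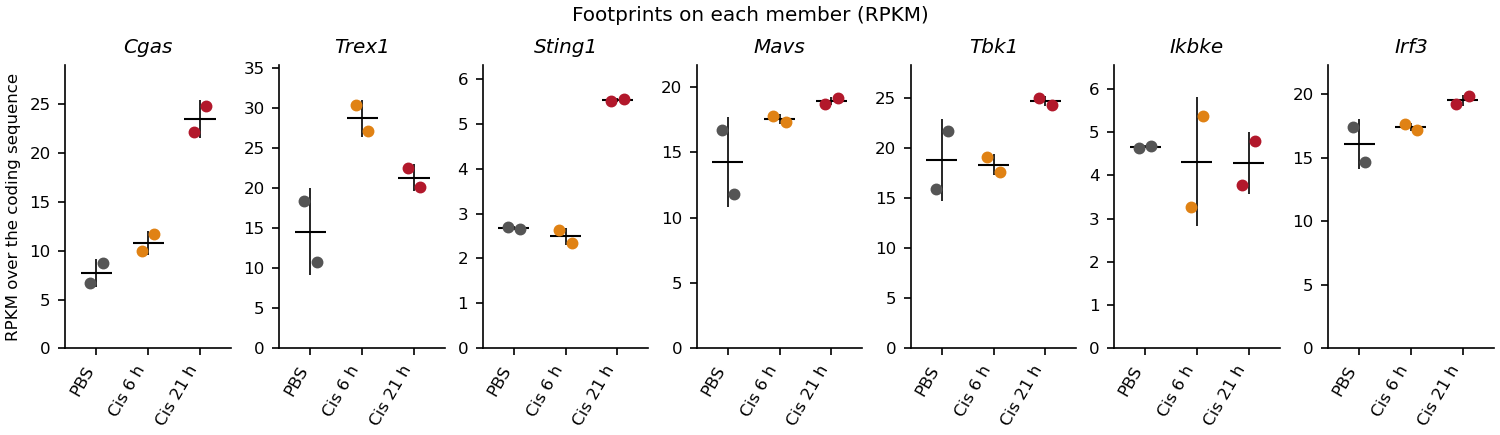
Footprints of the 7 genes in RPKM over the coding sequence (each vertical axis starts at 0 and has its own range) for the 2 libraries of each group, with the mean (horizontal line) and SD (vertical line). In Cgas, Sting1, Mavs, Tbk1 and Irf3 both 21 h libraries lie above all 4 others. In Cgas, Trex1 and Mavs both 6 h libraries lie above both PBS libraries. How many of all transcripts separate in these ways was not counted.

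Cgas rose the most of the 7. Its footprints stood at 6.70 and 8.75 RPKM with PBS, 9.95 and 11.7 at 6 h, and 22.1 and 24.8 at 21 h, on 53 to 132 reads a library. The 3 groups did not overlap. The change in footprints at 21 h was 1.52 on the log2 scale (SE 0.19, limma adjusted p = 0.000485), against 0.45 (SE 0.19, limma adjusted p = 0.211) at 6 h. The step from 6 h to 21 h was itself past the threshold, with a log2 fold change of 1.06 (limma adjusted p = 0.00418), so the effect at 21 h was larger than that at 6 h. Leaving out any single library kept the change at 21 h past the threshold.

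Sting1 was sparse and rose late. Its footprint reads were 16 and 14 with PBS, 14 and 9 at 6 h, and 23 and 22 at 21 h, which is 2.71 and 2.65, 2.63 and 2.35, and 5.50 and 5.55 RPKM. Both 21 h libraries lay above the other 4, and the PBS and 6 h libraries were close to each other. The log2 fold change of footprints was -0.10 (SE 0.23, limma adjusted p = 0.846) at 6 h, 0.89 (SE 0.23, limma adjusted p = 0.016) at 21 h, and 0.99 (limma adjusted p = 0.0137) from 6 h to 21 h. Pooled over the 2 libraries of a group, reads per depth at 21 h were 2.06 times those with PBS, with a 95% interval for counting error alone of 1.27 to 3.39. At this depth the call was easily lost: the adjusted p from limma was 0.0716 and 0.0740 without the first or second PBS library and 0.0556 without the second 21 h library, and the comparison with 6 h gave 0.0748 without the second 6 h library.

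**Figure D2:**
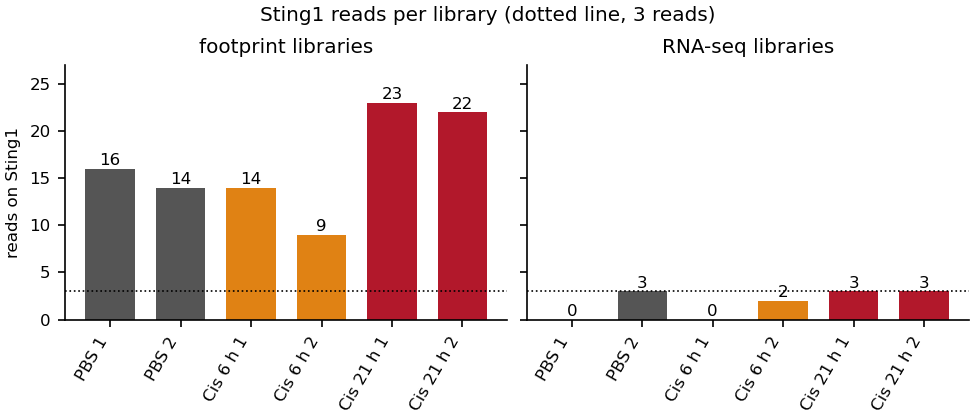
Whole reads on Sting1 in each of the 12 libraries, footprints on the left and RNA-seq on the right, with a dotted line at 3 reads. The 6 RNA-seq libraries hold 0 to 3 reads each, so the footprint libraries carry the Sting1 result.

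Of the 7 genes, 2 passed the test in footprints at 21 h, Cgas and Sting1, both higher, where 39.1% of all transcripts tested passed in either direction and 18.9% were higher. From 6 h to 21 h the same pair passed, where 30.7% of all transcripts did. At 6 h, 0 of 7 passed in limma, where 2.04% of all transcripts did, while 2, Cgas and Trex1, had an unadjusted p under 0.05 (21.4% of all transcripts). Voom, limma's method for counts, called 1 of the 7, Trex1, where it called 1238 of all 10383 transcripts. These shares are near the background, so the counts alone do not set the pathway apart. The median log2 fold change at 21 h was 0.38 over the 7 genes, with 6 of 7 above 0, and 0.0063 over all transcripts tested. In bulk libraries, a change in the share of cells with a transcript and a change in its amount per cell cannot be told apart.

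Leukocytes express Cgas and Sting1 strongly, so their markers were read beside these results. Of 10 leukocyte markers, 4 had no footprint in any library, namely Itgam, Tyrobp, Fcer1g and Cd3e, and only Cd68 had a mean of at least 1 RPKM. Their summed footprints were 2.07 to 2.62 RPKM with PBS, 1.73 to 3.13 at 6 h and 3.76 to 10.4 at 21 h, mostly Cd68 and Lyz2. The defining markers Ptprc and Adgre1 stayed at or below 0.318 RPKM and Csf1r at or below 0.740. The part of this sum in the change of Cgas and Sting1 was not tested.

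Trex1 had its highest footprint values at 6 h. It stood at 18.4 and 10.7 RPKM with PBS, 30.3 and 27.1 at 6 h, and 22.5 and 20.1 at 21 h. Both 6 h libraries were above the rest, but the 2 PBS libraries differed from each other more than those of any other member. The log2 fold change was 0.99 at 6 h (SE 0.22, limma adjusted p = 0.0588) and 0.54 at 21 h (SE 0.22, limma adjusted p = 0.0813), both short of the threshold. From 6 h to 21 h it was -0.44 (SE 0.22, limma adjusted p = 0.159), and with only these 2 groups in the model the adjusted p from limma was 0.0495. At 6 h leaving out one library at a time gave 0.63 to 1.35. At 6 h the call was gained with voom (adjusted p = 0.0011) and with only transcripts of at least 5 RPKM in limma (adjusted p = 0.0408), and at 21 h without the first PBS library in limma (adjusted p = 0.0102).

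Mavs had 16.7 and 11.8 RPKM of footprints with PBS, 17.8 and 17.3 at 6 h and 18.7 and 19.2 at 21 h. Every treated library was above both PBS libraries, and the 2 PBS libraries differed by more than any 2 treated ones. The log2 fold change at 21 h was 0.38 (SE 0.17, limma adjusted p = 0.11), and it passed without the first PBS library (limma adjusted p = 0.0397).

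The kinases and the transcription factor did not pass in footprints. Tbk1 stood at 15.9 and 21.7 RPKM with PBS, 19.1 and 17.6 at 6 h, and 25.1 and 24.4 at 21 h, so both 21 h libraries were the highest. Its log2 fold change at 21 h was 0.37 (SE 0.17, 95% interval -0.03 to 0.76, limma adjusted p = 0.124), and voom on the recovered reads gave an adjusted p of 0.0305, and limma without the second PBS library gave 0.0369. Ikbke, the kinase related to TBK1, had 4.65 and 4.69 RPKM with PBS, 3.27 and 5.37 at 6 h, and 3.78 and 4.79 at 21 h. These groups overlapped, with a log2 fold change at 21 h of -0.15 (95% interval -0.77 to 0.47, limma adjusted p = 0.69). Irf3, the substrate of both kinases, had 17.4 and 14.7 RPKM with PBS, 17.6 and 17.2 at 6 h, and 19.2 and 19.8 at 21 h. Its 21 h libraries were the highest by a small margin, with a log2 fold change of 0.24 (95% interval -0.08 to 0.56, limma adjusted p = 0.204). At 6 h the log2 fold changes of Mavs, Tbk1, Ikbke and Irf3 lay between -0.15 and 0.30, with adjusted p from limma of 0.36 to 0.94.

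RNA was measured with fewer reads, and 6 of the 7 genes reached a mean of 1 RPKM and were tested. Cgas was the only one to pass at 21 h (1 of 6, where 23.8% of all transcripts passed). Its RNA stood at 2.01 and 2.38 RPKM with PBS, 3.11 and 3.10 at 6 h, and 4.45 and 5.20 at 21 h, on 20 to 44 reads a library. As in footprints, the 3 groups did not overlap. The log2 fold change of Cgas RNA was 0.48 (SE 0.24, limma adjusted p = 0.467) at 6 h and 0.91 (SE 0.24, limma adjusted p = 0.022) at 21 h. Without any one of the 4 PBS and 21 h RNA-seq libraries the latter missed the threshold, with adjusted p from limma of 0.0645 to 0.119.

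**Figure D3:**
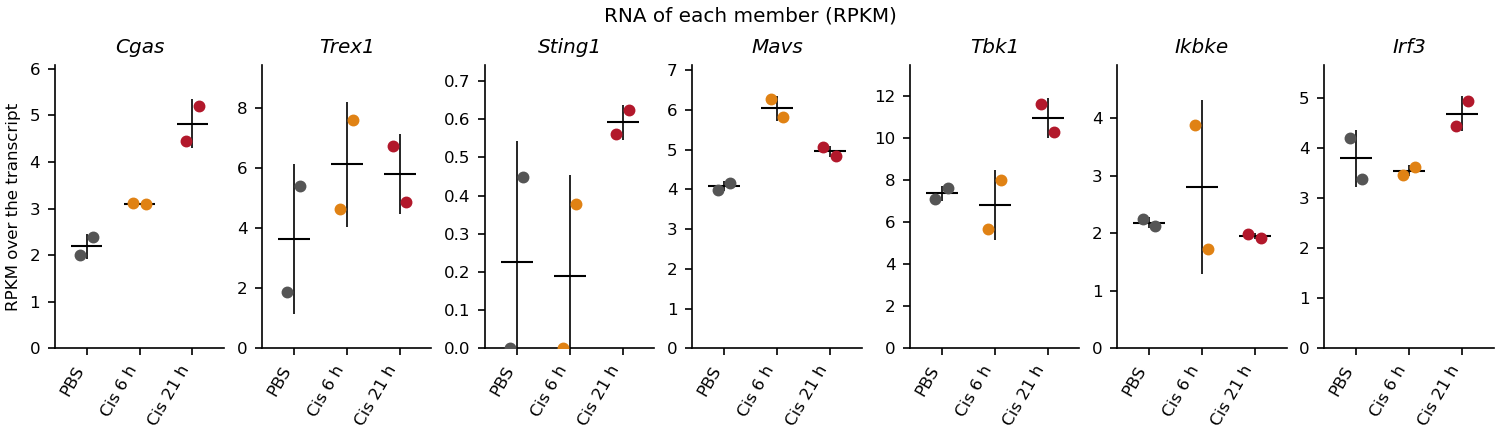
RNA of the 7 genes in RPKM over the transcript (each vertical axis starts at 0 and has its own range) for the 2 libraries of each group, with the mean (horizontal line) and SD (vertical line). Cgas is ordered PBS, 6 h, 21 h without overlap, while the libraries of Trex1 and of Ikbke at 6 h are far apart and Sting1 stays under 1 RPKM.

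Trex1 RNA stood at 1.87 and 5.40 RPKM with PBS, 4.65 and 7.59 at 6 h, and 6.73 and 4.85 at 21 h, on 5 to 19 reads a library. Its groups overlapped, with log2 fold changes of 0.85 at 6 h and 0.66 at 21 h (limma adjusted p = 0.453 and 0.267). Sting1 RNA had 0 and 3 reads with PBS, 0 and 2 at 6 h, and 3 and 3 at 21 h. The mean of Sting1 RNA was under 1 RPKM, so it was left out of the test and no fold change is given. Its reads are also at or under the floor of 3 reads, and whether it changed was not detectable at this depth. Mavs RNA was highest at 6 h, with 3.99 and 4.17 RPKM with PBS, 6.26 and 5.81 at 6 h, and 5.06 and 4.85 at 21 h. Its 3 groups did not overlap, but its log2 fold change at 6 h of 0.58 (SE 0.20, unadjusted p = 0.0186) had an adjusted p of 0.344 from limma. Tbk1 RNA stood at 7.12 and 7.64 RPKM with PBS, 5.66 and 8.02 at 6 h, and 11.6 and 10.3 at 21 h. Both 21 h libraries were the highest, as in footprints, with a log2 fold change of 0.46 (SE 0.21, limma adjusted p = 0.138). Ikbke RNA lay between 1.73 and 3.87 RPKM and Irf3 RNA between 3.39 and 4.95 RPKM over all 6 libraries, with log2 fold changes at 21 h of -0.20 and 0.20 (limma adjusted p = 0.713 and 0.561). At 6 h, 0 of 6 genes passed in limma or voom, where 0% of all transcripts passed in limma, and Mavs was the only one with an unadjusted p under 0.05 (11.5% of all transcripts). From 6 h to 21 h, 0 of 6 passed in either tool, where 15.7% of all transcripts passed in limma, and Tbk1 was the only one with an unadjusted p under 0.05 (31.0% of all transcripts).

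Translation efficiency (TE) is the ratio of footprint to RNA level, and a change in it was tested over the 12 libraries as a difference between the footprint and the RNA effect. Taken between libraries of the same number, the ratio of Cgas was 3.34 and 3.67 with PBS, 3.20 and 3.77 at 6 h, and 4.97 and 4.78 at 21 h. Both 21 h ratios were above the rest, and the log2 change in TE was 0.61 (SE 0.28, 95% interval 0.0025 to 1.22, limma adjusted p = 0.391), which did not pass. In all 3 comparisons 0 of 6 genes passed in TE in limma or voom, where 0% of all transcripts passed in limma at 6 h, 0.409% at 21 h and 1.01% from 6 h to 21 h. At an unadjusted p under 0.05 there were 0 members at 6 h (7.64% of all transcripts) and 1, Cgas, at 21 h (12.7%) and from 6 h to 21 h (13.6%). The ratio of Trex1 with PBS was 9.80 in the first pair and 1.98 in the second, the widest gap among the members, on 5 and 17 RNA reads. Sting1 ratios at 21 h were 9.82 and 8.90, on 3 RNA reads each, and were not tested. TE of Mavs, Tbk1, Ikbke and Irf3 had log2 changes at 21 h of -0.09 to 0.21.

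**Figure D4:**
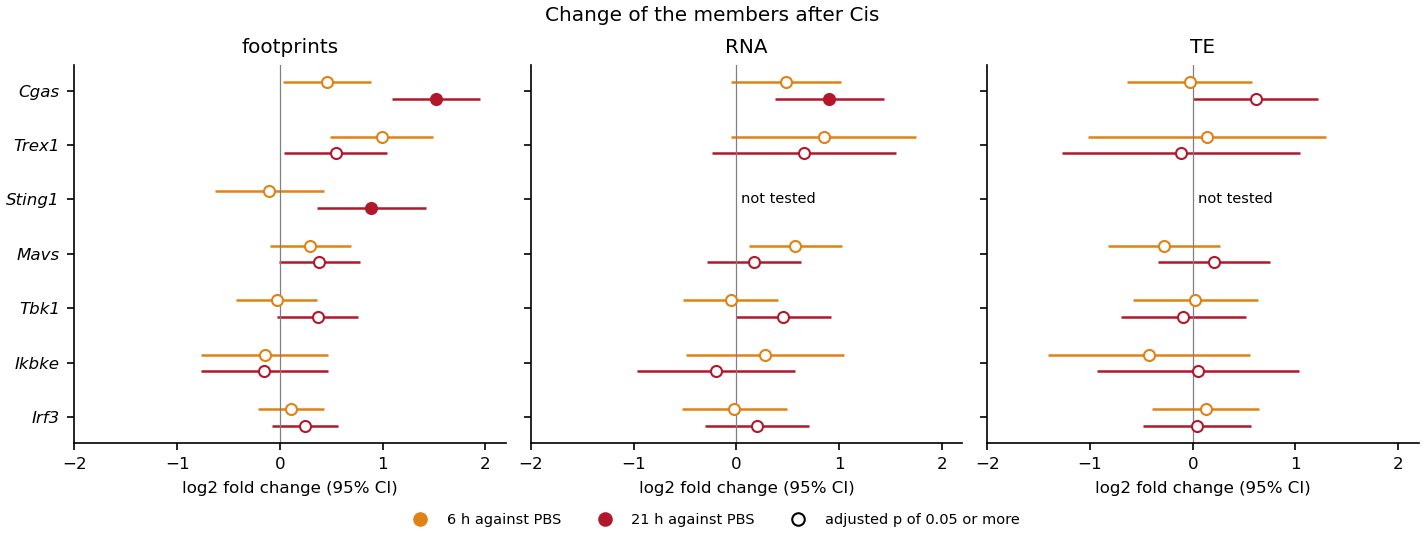
Log2 fold change (points) with its 95% confidence interval (lines) of footprints, RNA and TE at 6 h and 21 h against PBS, from limma on log2(RPKM + 0.5), with filled points for an adjusted p under 0.05. The filled points are Cgas and Sting1 footprints and Cgas RNA, all at 21 h, and Sting1 was not tested in RNA and TE.

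Promoters are shown for Cgas, the member that changed in both assays, and for Tbk1 and Mavs, which did not pass in either, to set their letters side by side. They are the 250 bases before the start of the gene in RefSeq on GRCm38.p6, a different build from that of the expression files, and are written 5′ to 3′ on the strand of the gene. Capitals mark GC boxes (GGGCGG on either strand) and CCAAT boxes (CCAAT on either strand). Cgas lies at chr9:78443238-78443487 on the minus strand, Tbk1 at chr10:121586795-121587044 on the minus strand and Mavs at chr2:131233813-131234062 on the plus strand.
Cgas: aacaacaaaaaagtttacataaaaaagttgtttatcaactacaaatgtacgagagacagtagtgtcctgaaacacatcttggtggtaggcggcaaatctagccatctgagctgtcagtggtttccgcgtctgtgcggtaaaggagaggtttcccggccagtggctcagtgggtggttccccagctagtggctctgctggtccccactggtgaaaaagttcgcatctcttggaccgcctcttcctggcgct
Tbk1: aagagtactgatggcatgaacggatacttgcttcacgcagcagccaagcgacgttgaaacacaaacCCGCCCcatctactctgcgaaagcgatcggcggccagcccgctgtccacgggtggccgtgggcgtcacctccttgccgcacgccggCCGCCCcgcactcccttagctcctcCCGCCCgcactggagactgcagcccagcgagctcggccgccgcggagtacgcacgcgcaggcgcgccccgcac
Mavs: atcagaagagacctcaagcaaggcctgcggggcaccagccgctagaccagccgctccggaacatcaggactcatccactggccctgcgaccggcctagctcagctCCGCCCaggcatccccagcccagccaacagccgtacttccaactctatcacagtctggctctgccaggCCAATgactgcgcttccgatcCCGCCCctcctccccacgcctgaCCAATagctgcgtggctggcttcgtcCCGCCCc
Searched were also an AP-1 site (TGANTCA), a CRE (TGACGTCA), the core of an interferon-stimulated response element (GAAA, 2 bases, GAAA), an ETS site (CCGGAAGT) and an E-box (CACGTG), on both strands. The Cgas and Ikbke windows held none of these 7 motifs. Tbk1 held 3 GC boxes, Mavs 3 GC boxes and 2 CCAAT boxes, Irf3 1 GC box, and 1 of the 2 windows listed for Trex1 held 1 GC box. A GC box is in 32.7% of all 32851 promoter windows of the same length and a CCAAT box in 33.8%, and the other motifs, which no member window held, are in 1.55 to 6.75%. Such a match is a run of letters and not a binding site, and no match says only that these letters are not in this window. Sting1 had no entry.

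Each member tested in both assays was set beside all 9294 other transcripts by Pearson's r of log2 values over the 12 libraries, centred within each assay. The closest to Cgas were Sgk1 (r = 0.979) and Gtse1 (r = 0.977), and the closest to Tbk1 were Ubxn4 (r = 0.947) and Upf3b (r = 0.943). Irf3 was closest to Impact (r = 0.944) and Klc4 (r = 0.942), Trex1 to Tmed1 (r = 0.900), Ikbke to Gstm2 (r = 0.888) and Tmem268 (r = 0.800), and Mavs to Thap11 (r = 0.878) and Trim47 (r = 0.876). By RefSeq the genes span between 1.8 kb (Trex1) and 40.3 kb (Tbk1) of the genome, with 12.7 kb for Cgas and 6.9 kb for Sting1. The r values are the highest of many over libraries that share groups and depth, and are given as a description.

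The other genes of the pathway were read from a list of 112 in 8 roles, of which 109 had a read and 100 were tested in footprints. At 21 h 18 were higher and 24 lower, 42 of 100, near the 39.1% of all transcripts, of which 18.9% were higher and 20.2% lower. At 6 h 1 was higher and 2 lower, where 1.05% and 0.992% of all transcripts were. In RNA at 21 h 12 of 97 were higher and 9 lower, where 11.6% and 12.2% of all transcripts were, and in TE 0 of 97 passed in limma, with 10 at an unadjusted p under 0.05, where 0.409% and 12.7% of all transcripts did. The counts by role that follow are of footprints at 21 h, where 39.1% of all transcripts passed, 18.9% higher and 20.2% lower.

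Beside cGAS and TREX1, the group of DNA sensors and DNA clearance had 3 genes higher and 8 lower of 20 tested in footprints at 21 h. Ifi204, an interferon-inducible DNA sensor, went from 50.2 RPKM with PBS to 31.0 at 6 h and 25.9 at 21 h, with log2 fold changes of -0.71 (limma adjusted p = 0.0385) and -0.98 (limma adjusted p = 0.000719). Both treated groups were below both PBS libraries, and genes of this family are similar enough to share reads. Enpp1, which degrades cGAMP outside the cell, fell from 9.24 RPKM with PBS to 4.49 at 21 h (log2 fold change -1.01, limma adjusted p = 0.0125). Prkdc, the catalytic subunit of the DNA-dependent protein kinase, fell from 2.06 to 0.608 RPKM (log2 fold change -1.23, limma adjusted p = 0.0172). The sensor Cgas rose in footprints while these 3 genes, picked for the largest changes in the group, fell. The 3 genes of the group that were higher had smaller changes. They were Pqbp1 (log2 fold change 0.73, limma adjusted p = 0.00262), Rnaseh2a (0.41, limma adjusted p = 0.0302) and Adar (0.40, limma adjusted p = 0.0226).

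Genes for the transport and turnover of STING had 5 higher and 1 lower of 25 tested in footprints at 21 h. Syvn1, the ER ubiquitin ligase HRD1, rose from 10.3 RPKM with PBS to 21.7 at 21 h (log2 fold change 1.01, limma adjusted p = 0.00444). Hgs, a subunit of the ESCRT machinery that sorts ubiquitinated proteins to lysosomes, rose from 34.2 to 62.9 RPKM (log2 fold change 0.84, limma adjusted p = 0.000542), and Tollip, an endosomal adaptor known to stabilize STING, from 28.7 to 52.6 RPKM (log2 fold change 0.83, limma adjusted p = 0.00225). At 6 h these 3 stood at 9.93, 39.3 and 33.3 RPKM and did not pass, with adjusted p from limma of 0.354 to 0.897. Ern1, which encodes the ER stress sensor IRE1α, had 9.38 RPKM with PBS, 7.84 at 6 h and 6.76 at 21 h (log2 fold change -0.47, limma adjusted p = 0.0957). At 21 h Ern1 RNA had a log2 fold change of -0.63 (limma adjusted p = 0.0938). The log2 change of Ern1 in TE was 0.15 (limma adjusted p = 0.879), and none of these passed. Among carriers and channels for cyclic dinucleotides 1 of 6 passed, Abcc1, an exporter of cGAMP, which fell from 35.7 to 17.6 RPKM (log2 fold change -1.04, limma adjusted p = 0.000479).

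**Figure D5:**
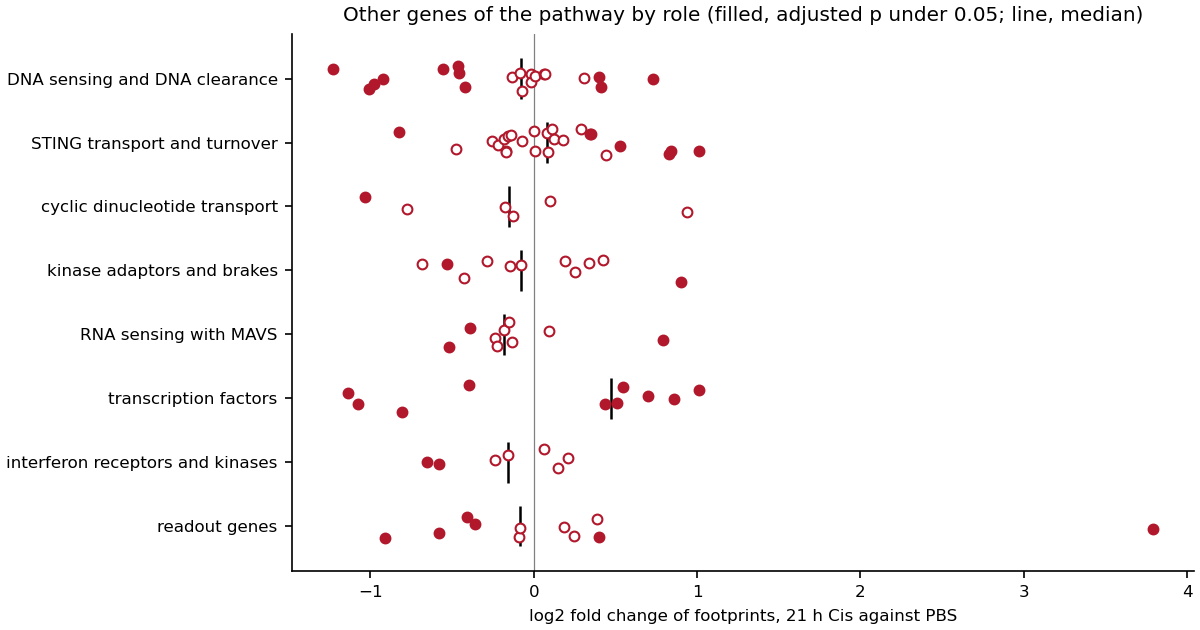
Log2 fold change of footprints at 21 h against PBS for the 100 other pathway genes tested, by role (points, spread vertically for legibility), with filled points for an adjusted p under 0.05 from limma and a line at the median of each role. All 10 transcription factors tested are filled, 6 above and 4 below 0, where 39.1% of all transcripts passed, and Il6 is the point near 3.79.

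Around the kinases and adaptors 1 gene was higher and 1 lower of 11. Traf2, a ubiquitin ligase that links receptors to NF-κB, rose from 15.0 to 29.0 RPKM (log2 fold change 0.90, limma adjusted p = 0.002), and Ppm1b, a phosphatase that acts on TBK1, fell with a log2 fold change of -0.53 (limma adjusted p = 0.00883). In the RNA sensing branch that ends at MAVS, 1 was higher and 3 lower of 10. Rnf135, the ubiquitin ligase that activates RIG-I, rose at both times, from 13.2 RPKM with PBS to 21.5 at 6 h and 23.7 at 21 h (log2 fold changes 0.67 and 0.79, limma adjusted p = 0.0455 and 0.00224). Ifih1, which encodes MDA5, fell from 27.1 to 19.4 RPKM at 21 h (log2 fold change -0.52, limma adjusted p = 0.0264), and Pcbp2, a poly(C)-binding protein known to promote MAVS degradation, fell by 0.39 on the log2 scale (limma adjusted p = 0.0069). Pcbp2 also fell in TE from 6 h to 21 h, with a log2 change of -0.58 (limma adjusted p = 0.0436).

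Transcription factors of the pathway other than IRF3 passed in 10 of 10 cases tested in footprints at 21 h, 6 higher and 4 lower. Of all transcripts tested, 39.1% passed, 18.9% higher and 20.2% lower. The list was chosen with earlier results of these data known, so this count alone does not set the role apart. Nfkb1 fell from 30.2 to 14.5 RPKM (log2 fold change -1.08, limma adjusted p = 0.000922) and Relb, the non-canonical NF-κB subunit, rose from 3.97 to 8.66 RPKM (log2 fold change 1.01, limma adjusted p = 0.00903). Irf2, a repressor of interferon genes, was already lower at 6 h, at 35.6 against 59.4 RPKM (log2 fold change -0.74, limma adjusted p = 0.0288), and stood at 34.5 RPKM at 21 h. Of the interferon receptors and their kinases 0 were higher and 2 lower of 7, Ifngr1 (log2 fold change -0.66) and Jak1 (log2 fold change -0.58), with adjusted p of 0.00102 and 0.00322 from limma.

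The genes that IRF3, NF-κB and interferon switch on moved in both directions, with 2 higher and 4 lower of 11 tested in footprints at 21 h. Il6, a cytokine driven by NF-κB, rose from 6 and 1 reads with PBS to 38 and 50 at 21 h (log2 fold change 3.79, limma adjusted p = 0.000405). Interferon-stimulated Ifit3 fell from 120.6 ± 20.5 RPKM (SD, n = 2) to 65.3 ± 5.42 (log2 fold change -0.91, limma adjusted p = 0.000955), though its near copy can share its reads, and Ifit2 fell by 0.58 on the log2 scale (limma adjusted p = 0.0108). The chemokine Cxcl10 stood at 226, 242 and 264 RPKM in footprints with PBS, at 6 h and at 21 h (log2 fold change at 21 h 0.18, limma adjusted p = 0.193), while its RNA rose with a log2 fold change of 0.58 (limma adjusted p = 0.0213). The chemokine Ccl5 had 109.5 RPKM with PBS, 67.4 at 6 h and 133.3 at 21 h. From 6 h to 21 h Ccl5 rose in footprints (log2 fold change 0.95, limma adjusted p = 0.00284) and in TE (log2 change 1.06, limma adjusted p = 0.0328), and against PBS at 21 h its footprints had a log2 fold change of 0.25 (limma adjusted p = 0.238). Ifnb1, the interferon gene most directly read for IRF3 activity, had 7 and 2 footprint reads with PBS, 0 and 0 at 6 h and 3 and 1 at 21 h, and 1 RNA read in all 6 RNA-seq libraries, so a change of Ifnb1 was not detectable at this depth.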

How the data were processed

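Per the labels, the authors made ribosome profiling and RNA-seq libraries of KPC cells and deposited RPKM for a representative transcript of each gene, per library and without pooling of replicates. The submitters' processing notes name cutadapt, STAR and GRCm39, without versions. Multiplied by length, RPKM values were whole multiples of the value of 1 read for 100% of values (tolerance 0.01), which gave reads and depth. Intervals and the floor of 3 reads cover counting error only. Transcripts that a library did not list were set to 0. Median-of-ratios factors put the libraries of an assay on one scale. Transcripts with a mean of at least 1 scaled RPKM were kept (10383 for footprints, 9443 for RNA, 9295 for TE). log2(RPKM + 0.5), which understates changes of low genes, was tested with limma 3.58.1 (lmFit, eBayes with trend) in R 4.3.3, with the 3 groups of an assay in one model, two-sided and with Benjamini-Hochberg adjustment over all transcripts (threshold 0.05). With 2 libraries against 2, an exact permutation test gives at least 0.333. The chi-square per degree of freedom between the 2 libraries of a group was 1.45 to 3.97, above sampling noise, so no library was taken for a copy of another; this does not show that they came from separate cultures. Tests were tried on counts simulated with the same level of spread beyond counting error for every gene and group. That is simpler than these data, so it does not show how the tests perform here.

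The members and lists were chosen with earlier results of these data known. Named are all members, in each role of the pathway list up to 3 genes with the largest change among those that passed in footprints at 21 h, listed genes that passed at 6 h or in TE, Ern1, Ifnb1, Cxcl10, Ccl5 and Il6, and for each member the 2 transcripts with the highest r. Some items that this rule names are not reported here. The fits were repeated with another pseudocount (0.1 or 1), without the filter or at 5 RPKM and above, on unscaled RPKM, after quantile normalization, without the eBayes trend, on only the groups compared, with a replicate block, on TE ratios of libraries with the same number, by voom on recovered reads, at an adjusted p under 0.1, and without each library in turn. Coordinates of GRCm38.p6 were used for promoter windows, and its gene spans as lengths.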

Additional observations from a re-analysis of the deposited data

Results flagged for a closer look

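The effects of Cis on footprints at 6 h and 21 h, each against the same PBS libraries, differed by a test of the difference for 2 of the 7 genes. For Cgas the effect at 21 h exceeded that at 6 h by 1.06 on the log2 scale (limma adjusted p = 0.00418), with both 21 h libraries above both 6 h libraries. For Sting1 it was larger by 0.99 (limma adjusted p = 0.0137), also with both libraries above, on 9 to 23 reads a library. Groups of 2 libraries are too small for a test of single libraries that stand apart.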

How the results depend on the processing

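The number of members called in footprints at 6 h was 0 and became 1 (Trex1) with an adjusted p under 0.1, with at least 5 RPKM (5 members tested) and with voom. Of all transcripts, 682 of 10383, 344 of 8254 and 1238 of 10383 passed under these settings in turn. With at least 5 RPKM the number was 1 (Cgas) in footprints at 21 h and from 6 h to 21 h, because Sting1 and Ikbke leave the test, and 0 in RNA at 21 h, where 2 members were tested. Of all transcripts, 3605 and 3007 of 8254 passed in these footprint comparisons and 1730 of 5679 in RNA at 21 h. Leaving out each library in turn gave 1 to 3 members in footprints at 21 h, 1 to 2 from 6 h to 21 h and 0 to 1 in RNA at 21 h. In footprints at 21 h these were Cgas, Mavs and Trex1 without the first PBS library, Cgas and Tbk1 without the second, and Cgas alone without the second 21 h library. With only the 2 groups compared in the model, 3 members passed in footprints from 6 h to 21 h, Trex1 (lower) with Cgas and Sting1. Of all transcripts, 2952 of 10329 passed there. A library left alone in its group was assumed to vary like the others. Cgas footprints at 21 h passed under every alternative run, with log2 fold changes of 1.32 to 1.72, and no called member changed sign under any.

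Samples of the same number did not deviate together (correlations of -0.040 to 0.035 over 9295 transcripts). Such correlations cannot show whether samples of the same number came from the same culture. With the replicate number as a block, the members called were 0 in footprints at 6 h, 3 at 21 h (Trex1 added, limma adjusted p = 0.0462) and 2 from 6 h to 21 h, 1 in RNA at 21 h and 0 elsewhere, while 37 in place of 212 of all transcripts passed in footprints at 6 h. Over all alternatives to the fit, that total ran from 0 (without the trend) to 1238 (voom), the RNA total from 6 h to 21 h from 790 to 2197 in place of 1486, and the TE totals from 0 to 153 in place of 38 at 21 h and from 0 to 189 in place of 94 from 6 h to 21 h. Voom called 253 transcripts in RNA and 13 in TE at 6 h in place of 0. RPKM as deposited moved the median RNA change from 6 h to 21 h to 0.15 on the log2 scale, with 1234 transcripts higher and 514 lower in place of 711 and 775.

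Depth limits Sting1 and Ifnb1 most, and RNA and TE more than footprints.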
